A study of Mus musculus with 384 samples.

Results

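The 10 genes described here encode subunits of the Polycomb repressive complexes, and were measured in single mouse cells cultured as formative stem (FS) cells or as epiblast stem cells (EpiSCs). They are Ezh1, Ezh2, Eed, Suz12, Jarid2, Mtf2, Rnf2, Ring1, Cbx7 and Cbx2, and each was found by its Ensembl identifier among the 31617 genes of the count table, so that 10 of 10 were present. The rule that picks them uses their names and no measured value, although results of these data were known when the list was drawn up. FS cells are pluripotent lines that represent the formative phase, between the naive and the primed phase, and EpiSCs represent the primed phase. The FS cell lines 5ar1 and 5ar2 were cultured in A3XR medium, which holds a low dose of activin A, the tankyrase inhibitor XAV939 that blocks Wnt signalling, and the retinoic acid receptor inverse agonist BMS493. EpiSC line AFX6 was cultured in AFX, with activin A, Fgf2 and XAV939, and EpiSC line AF32 in AF, with activin A and Fgf2 alone. No line is labelled as carrying a mutation or a transgene. The labels do not give the strain or the sex of a line. Each EpiSC medium was represented by 1 line, so the line and the medium cannot be told apart.

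Polycomb proteins keep developmental genes silent. Polycomb repressive complex 2 (PRC2) methylates lysine 27 of histone H3, a mark called H3K27me3. Its catalytic subunit is either Ezh2 or the related Ezh1, and it works only together with Eed, which binds the mark, and Suz12, the scaffold of the complex. Jarid2 and Mtf2 are accessory subunits of alternative forms of PRC2 and help to bring it to chromatin. Polycomb repressive complex 1 (PRC1) ubiquitinates histone H2A through Rnf2 or its paralogue Ring1. In canonical PRC1 a Cbx protein, such as Cbx7 or Cbx2, binds H3K27me3 through its chromodomain. In pluripotent cells many promoters of lineage genes carry these marks.

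Of 384 cells, 96 per line, 326 had at least 3000000 counts and were kept. 5ar1 and 5ar2 had 90 kept cells each, AFX6 had 66 and AF32 had 80, and a kept cell had 3022666 to 6686007 counts. The summed counts of a line ranged from 332621205 to 434858507. The median number of genes detected in a cell was 11371 and 11567.5 in the FS lines, and 10328 and 10330.5 in the EpiSC lines, and its part in the differences below was not tested. The pluripotency factor Pou5f1 was present in all lines at 489.7 to 643.6 counts per 1000000 counts (CPM), and Fgf5, a marker of the formative epiblast, was higher in the FS lines (228.8 and 271.6 CPM) than in AFX6 (30.7 CPM) and AF32 (44.9 CPM). The 7 pluripotent epiblast markers did not all go this way. Among them, 4 were higher in both FS lines, 2 in both EpiSC lines, and 1 overlapped. The shares over all genes tested were 26.6% for both FS lines and 21.7% for both EpiSC lines. Naive markers summed to 1.86 to 3.73 CPM over 4 genes in each line. Among markers of other cell types, the neural list was highest in 5ar1, where Tubb3 stood at 335.2 CPM, followed by 5ar2 (129.9 CPM), AF32 (68.7 CPM) and AFX6 (12.2 CPM), while its other 4 genes were each at or under 12.5 CPM. Endoderm and trophoblast markers summed to 1.66 to 6.86 CPM and mesenchymal markers to 5.57 to 39.6 CPM, the highest in 5ar2. The part of these markers in the results was not tested.

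The proximal promoters of the core PRC2 genes are shown because Ezh1 and Suz12 stood on one side of the comparison of FS cells and EpiSCs, and Ezh2 and Eed on the other. Each run is the 250 bases before the RefSeq start of the gene on GRCm38.p6, written 5′ to 3′ on the gene's own strand. Capitals mark the letters CCAAT, or ATTGG for the other strand, and the E2F words TTTCCCGC and TTTGGCGC, which were searched on both strands. The windows are chr6:47595031-47595280 on the minus strand for Ezh2, chr11:101226464-101226713 on the minus strand for Ezh1, chr7:89980977-89981226 on the minus strand for Eed and chr11:79992856-79993105 on the plus strand for Suz12. The Ezh2 window lies inside the span of that gene in GENCODE M21, which ends at position 47595341, and the Eed window overlaps its annotated start by a few bases. Those of Ezh1 and Suz12 end right before it.
Ezh2: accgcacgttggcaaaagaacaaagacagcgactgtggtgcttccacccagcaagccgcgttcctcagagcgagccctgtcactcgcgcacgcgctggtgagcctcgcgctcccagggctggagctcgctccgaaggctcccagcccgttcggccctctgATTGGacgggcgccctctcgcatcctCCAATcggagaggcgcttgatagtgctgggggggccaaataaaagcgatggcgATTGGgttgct
Ezh1: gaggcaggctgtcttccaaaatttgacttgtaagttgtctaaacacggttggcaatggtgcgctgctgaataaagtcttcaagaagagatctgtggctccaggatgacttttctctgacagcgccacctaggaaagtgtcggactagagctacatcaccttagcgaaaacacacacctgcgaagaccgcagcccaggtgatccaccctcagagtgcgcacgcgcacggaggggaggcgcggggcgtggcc
Eed: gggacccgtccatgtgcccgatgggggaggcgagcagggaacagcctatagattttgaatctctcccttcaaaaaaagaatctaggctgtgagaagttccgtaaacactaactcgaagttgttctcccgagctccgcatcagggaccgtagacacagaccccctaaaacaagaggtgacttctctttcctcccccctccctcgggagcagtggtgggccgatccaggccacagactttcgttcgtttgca
Suz12: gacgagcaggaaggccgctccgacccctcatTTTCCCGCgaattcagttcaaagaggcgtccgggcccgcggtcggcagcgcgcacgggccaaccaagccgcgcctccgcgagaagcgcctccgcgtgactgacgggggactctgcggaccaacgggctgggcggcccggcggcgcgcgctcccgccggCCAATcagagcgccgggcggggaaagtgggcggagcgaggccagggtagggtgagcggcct
RefSeq promoters were matched for 9 of the 10 genes, with a pair each for Jarid2 and Mtf2. Ezh2 held 3 matches to CCAAT, and 33.8% of 32851 mouse promoters of the same length held at least 1. Suz12 held 1 such match and 1 E2F word, TTTCCCGC, 219 bases before the start, and 1.30% of all promoters held an E2F word. Ezh1 and Eed held neither. CpG pairs numbered 37 in the Suz12 window, 23 in Ezh2, 14 in Ezh1 and 12 in Eed, against a median of 6 over all promoters. A match describes these letters and is not evidence of binding.

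Levels between genes were compared as CPM per kilobase of annotated exon. In all 4 lines Ezh2, Eed, Mtf2 and Rnf2 formed the upper group, at 16.2 to 33.9 CPM per kilobase. Within this group the order changed from line to line: Ezh2 led in 5ar1 (26.9 CPM per kilobase), Eed in 5ar2 (33.9), and Rnf2 in AFX6 (25.1) and AF32 (27.1). The 6 other genes stood between 1.48 and 11.4 CPM per kilobase, so no gene of the lower group reached the upper one in any line. Ezh1 was the lowest member in 5ar1 (1.82 CPM per kilobase) and 5ar2 (1.48), and Ring1 the lowest in AFX6 (1.83) and AF32 (2.34). Suz12, with 3.01 to 7.19 CPM per kilobase, stood under Eed and Ezh2, its partners in the core of PRC2, in all 4 lines. Exon length is the union over all annotated transcripts, which understates genes that use short ones. The levels per cell are shown in the plot by line.

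**Figure D1:**
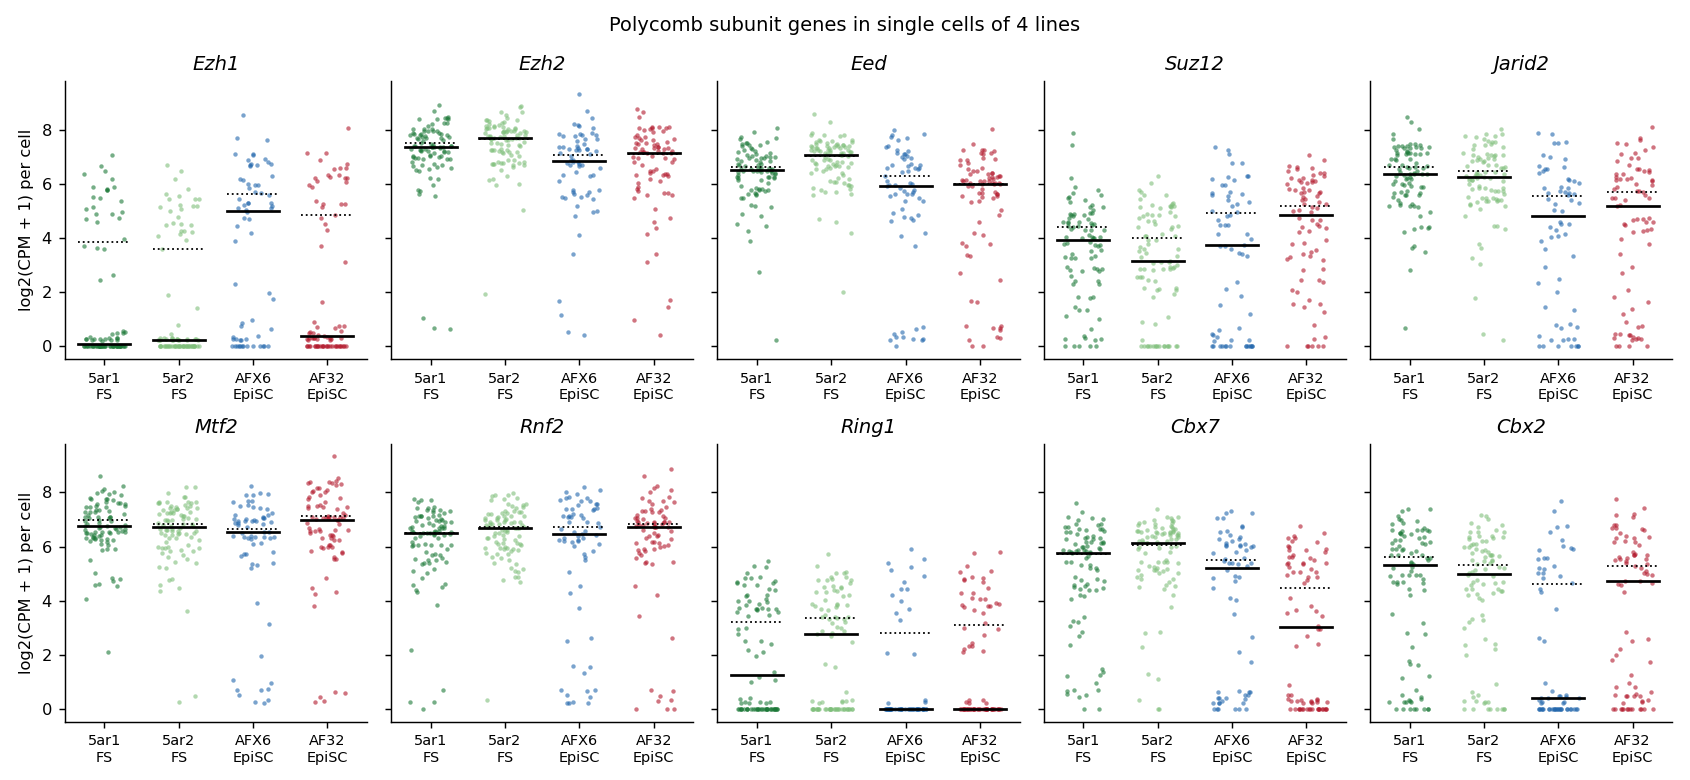
Levels of the 10 Polycomb subunit genes in single cells. The vertical axis is log2(CPM + 1), each point is a kept cell (90, 90, 66 and 80 from left to right), solid bars are medians over cells, and dotted bars mark the CPM of counts summed over the line. Most cells had at least 5 CPM of Ezh2 in each line, and of Mtf2 and Rnf2 in the FS lines. In AFX6, at least 5 CPM was found in 84.8% of cells for Mtf2 and 80.3% for Rnf2, the others lying near 0. Ezh1 and Ring1 had many cells at or near 0.

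The first comparison asked how the subunits differ between FS cells and EpiSCs, with lines as replicates, 2 against 2. Both FS lines were in A3XR and no EpiSC line was, so cell state and medium cannot be told apart here. The spread between the EpiSC lines also includes the difference between their media. On summed counts scaled by TMM factors, 6 of the 10 genes were higher in both FS lines than in both EpiSC lines (Ezh2, Eed, Jarid2, Ring1, Cbx7 and Cbx2), 3 were higher in both EpiSC lines (Ezh1, Suz12 and Rnf2), and Mtf2 overlapped. Over all 22606 genes tested, 26.6% were higher in both FS lines and 21.7% in both EpiSC lines. Among the genes with at least 5 CPM in 1 line, as all 10 members have, the shares were 25.9% and 27.9%. The median log2 fold change (FS minus EpiSC) of the members was 0.44, and that of all genes tested was -0.01. No member passed edgeR's quasi-likelihood test, for which a log2 fold change past 1.4 in either direction and a Benjamini-Hochberg adjusted p below 0.05 were required. The share of all genes called was 0% as well. At an unadjusted p under 0.05, 4 members were found (Ezh1, Ezh2, Suz12 and Jarid2), against 16.1% of all genes. DESeq2 on the same sums called 1454 genes, among them Ezh1 of the 10 members, and limma on mean log2(CPM + 1) called 0, with 4677 at an unadjusted p under 0.05.

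The catalytic subunits stood on opposite sides. Ezh1, the less abundant methyltransferase of PRC2, was measured at 13.5 and 11.0 CPM in the FS lines 5ar1 and 5ar2, and at 48.0 and 27.7 CPM in AFX6 and AF32. Both EpiSC lines were thus above both FS lines, and AFX6 was the highest. The mean was 12.3 ± 1.78 CPM in FS lines and 37.9 ± 14.4 CPM in EpiSC lines (SD, n = 2 lines each), a log2 fold change of -1.64 ± 0.38 (SE), with an adjusted p of 0.19 in edgeR. Ezh1 was the only member that DESeq2 called (log2 fold change of -1.66, adjusted p = 0.0019), while over all alternatives its adjusted p ranged from 0.0019 to 0.75.

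Single cells show how this difference was made up. At least 5 CPM of Ezh1 was found in 26 of 90 5ar1 cells (28.9%) and 27 of 90 5ar2 cells (30.0%). Among EpiSCs it was found in 39 of 66 AFX6 cells (59.1%) and 29 of 80 AF32 cells (36.2%). The median over those cells was 37.3 and 32.5 CPM in the FS lines, 60.7 CPM in AFX6 and 68.3 CPM in AF32. AFX6 therefore had a larger share of such cells than the FS lines, and in both EpiSC lines the level within these cells was higher. The median over all cells was 31.0 CPM in AFX6 but only 0.32 CPM in AF32, near the 0.078 and 0.187 CPM of the FS lines.

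Ezh1 lies on chromosome 11 (101191115 to 101226463, minus strand, GRCm38), as do Suz12 (79993106 to 80034123, plus strand) and Cbx2 (119022962 to 119031270, plus strand). The summed level of this chromosome relative to the other autosomes was over 1.2 in 61 of 80 AF32 cells, against 5 of 66 AFX6 cells, 11 of 90 5ar1 cells and 0 of 90 5ar2 cells, with the members left out of the ratio. Within AF32, Ezh1 stood at 32.8 CPM in the 61 cells over the limit and at 10.8 CPM in the 19 others. In 5ar1 the order was the opposite, with 5.95 CPM in the 11 cells over the limit and 14.5 CPM in the 79 others. Without the 61 AF32 cells the EpiSC lines no longer lay apart from the FS lines for Ezh1, and the log2 fold change was -1.29, with an adjusted p of 0.53 in edgeR. The limit matters, because 6 of the 19 cells had a ratio between 1.1 and 1.2. In the 13 cells at or under 1.1, Ezh1 stood at 15.3 CPM, above both FS lines again, with 3 cells at or over 5 CPM, and the log2 fold change was -1.41 (adjusted p = 0.38 in edgeR). The difference between AFX6 and the FS lines does not rest on these cells. In AFX6, Ezh1 stood at 46.4 CPM in the 61 cells at or under 1.2.

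**Figure D2:**
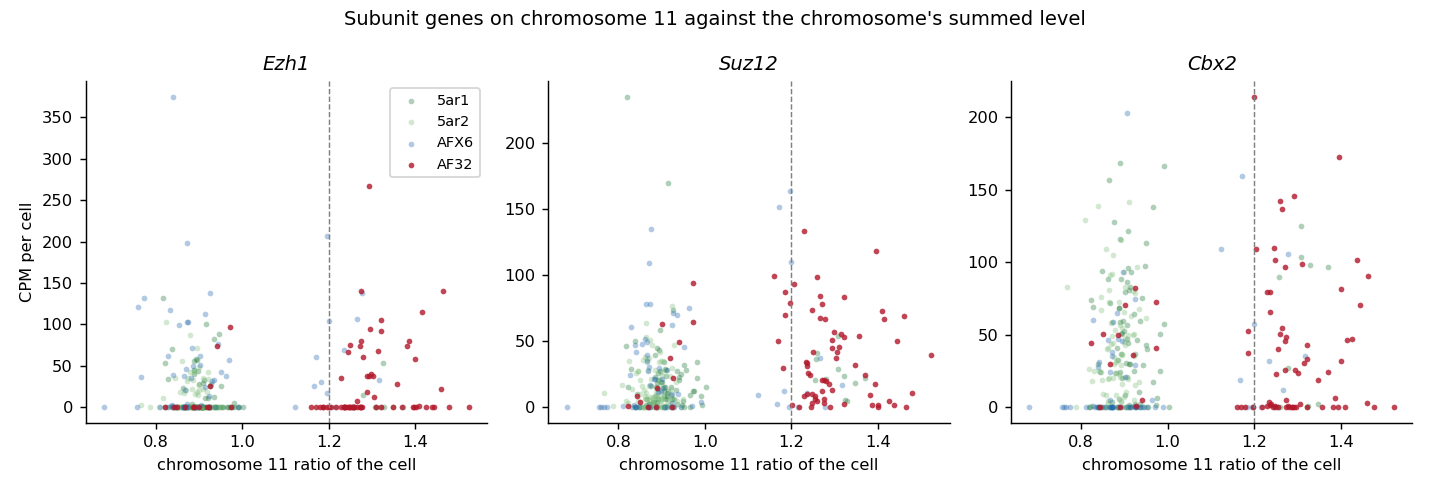
Ezh1, Suz12 and Cbx2 in each kept cell (vertical axis, CPM) against the summed level of chromosome 11 in that cell relative to the other autosomes (horizontal axis, a ratio). The dashed line marks a ratio of 1.2. In AF32, 61 of 80 cells were over the limit. They hold 26 of the 29 cells with at least 5 CPM of Ezh1, 47 of 61 for Suz12 and 35 of 46 for Cbx2.

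Ezh2, the main methyltransferase of dividing cells, was measured at 179.8 CPM in 5ar1 and 203.0 CPM in 5ar2, against 133.8 CPM in AFX6 and 135.6 CPM in AF32. Both FS lines were higher, and the EpiSC lines were nearly equal. This gave a log2 fold change of 0.50 ± 0.17 (SE), with an adjusted p of 0.27 in edgeR. Ezh2 was detected in every kept cell of all 4 lines, and at least 5 CPM was found in 93.9% to 98.9% of them. The Ezh2 gene lies on chromosome 6 (47530139 to 47595341, minus strand).

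Eed, the subunit that binds H3K27me3 and stimulates the enzyme, followed the direction of Ezh2. It was measured at 97.3 and 129.9 CPM in 5ar1 and 5ar2, and at 77.9 and 62.1 CPM in AFX6 and AF32. The FS lines were higher, and they differed from each other by more than the EpiSC lines did. Its log2 fold change was 0.69 ± 0.26 (SE), with an adjusted p of 0.31 in edgeR. At least 5 CPM of Eed was found in 98.9% of the cells of each FS line, 83.3% of AFX6 and 83.8% of AF32. A share of 4.01% of the 101-base windows of Eed transcripts was also found in the antisense gene E230029C05Rik, and the counting is not stated to use strand.

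Suz12, the scaffold of PRC2, went the other way. It was measured at 20.5 and 14.9 CPM in 5ar1 and 5ar2, and at 29.3 and 35.6 CPM in AFX6 and AF32. On summed counts the EpiSC lines were thus higher without overlap. Its log2 fold change was -0.88 ± 0.28 (SE), with an adjusted p of 0.26 in edgeR and 0.056 in DESeq2. Within AF32 the level of Suz12 was 34.0 CPM in the 61 cells with a chromosome 11 ratio over 1.2 and 40.7 CPM in the 19 others. Of these 19, the 6 cells with a ratio between 1.1 and 1.2 stood at 69.9 CPM and the 13 at or under 1.1 at 28.1 CPM, so the direction within AF32 turned with the limit. The log2 fold change was -0.99 without the AF32 cells over 1.2 and -0.74 (adjusted p = 0.35 in edgeR) without those over 1.1, and the EpiSC lines were higher without overlap in both cases. At least 5 CPM was found in 73.3% and 63.3% of the cells of the FS lines, and in 59.1% and 76.2% of AFX6 and AF32 cells. The medians over those cells were 20.6 and 20.4 CPM in the FS lines, and 37.0 and 42.0 CPM in AFX6 and AF32. Over all kept cells the groups overlapped, with medians of 14.3 and 7.79 CPM in 5ar1 and 5ar2, and 12.3 and 28.0 CPM in AFX6 and AF32. With limma on mean log2(CPM + 1) the log2 fold change of Suz12 was -0.46 (adjusted p = 0.62).

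The accessory subunits of PRC2 differed from each other. Jarid2, which defines a form of PRC2 that recognises ubiquitinated H2A, was measured at 98.3 and 88.5 CPM in 5ar1 and 5ar2, and at 45.8 and 50.7 CPM in AFX6 and AF32. The FS mean of 93.4 ± 6.90 CPM was 1.94-fold that of the EpiSCs (48.3 ± 3.47 CPM; SD, n = 2 lines each). The log2 fold change was 0.95 ± 0.18 (SE), with an unadjusted p of 0.0053 and an adjusted p of 0.19 in edgeR, and an adjusted p of 0.0014 in DESeq2, where the fold change was under the threshold of 1.4. At least 5 CPM of Jarid2 was found in 98.9% of cells of 5ar1 and 96.7% of 5ar2, but in 68.2% of AFX6 and 72.5% of AF32. Its log2 fold change kept its sign in all 15 alternatives and ranged from 0.72 to 1.92.

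Mtf2, a Polycomb-like protein that binds CpG-rich DNA, showed no such difference. It was measured at 124.5 and 114.0 CPM in 5ar1 and 5ar2, and at 100.3 and 139.3 CPM in AFX6 and AF32, with the EpiSC lines on either side of the FS lines. For Mtf2 the log2 fold change was -0.01 ± 0.22 (SE), with an adjusted p of 0.99 in edgeR. Its transcripts shared 4.31% of their 101-base windows with the overlapping antisense gene Tmed5.

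The ubiquitin ligases of PRC1 differed little between the groups. Rnf2, the main ligase of pluripotent cells, was measured at 89.8 and 104.8 CPM in 5ar1 and 5ar2, and at 103.5 and 112.0 CPM in AFX6 and AF32. On plain CPM of all kept cells the groups overlapped, since 5ar2 stood above AFX6, and they lay apart after scaling by TMM or DESeq2 size factors. They also lay apart on plain CPM in cells with at least 4000000 counts, so the order of 5ar2 and AFX6 depends on the setting. For Rnf2 the log2 fold change was -0.15 ± 0.18 (SE; adjusted p = 0.79 in edgeR). Ring1, its paralogue, was low in all lines, at 8.32, 9.33, 5.93 and 7.59 CPM in the same order. For Ring1 it was 0.38 ± 0.37 (SE; adjusted p = 0.73 in edgeR). A count of Ring1 was found in 62.2% and 64.4% of cells of the FS lines, 28.8% of AFX6 cells and 48.8% of AF32 cells, and in 56.7%, 61.1%, 28.8% and 45.0% after each cell was thinned to 3000000 counts.

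Both chromodomain subunits differed by more than 1.5-fold between the EpiSC lines, as did 42% of genes with at least 5 CPM in 1 line. The difference in Cbx2 fell to 1.33-fold in cells with at least 10000 detected genes. Cbx7, the main chromodomain subunit of PRC1 in embryonic stem cells, was measured at 52.1 and 65.3 CPM in 5ar1 and 5ar2, and at 44.1 and 21.3 CPM in AFX6 and AF32. Both FS lines were higher, but AFX6 lay closer to 5ar1 than to AF32. The log2 fold change was 0.83 ± 0.44 (SE; adjusted p = 0.47 in edgeR), and it was 1.48 without AFX6 and 0.38 without AF32. Cbx2, which is known for compacting chromatin, was measured at 48.5 and 38.7 CPM in 5ar1 and 5ar2, and at 23.6 and 38.4 CPM in AFX6 and AF32. The 5ar2 and AF32 lines were almost level, and with DESeq2 size factors the groups overlapped. The log2 fold change of Cbx2 was 0.49 ± 0.32 (SE; adjusted p = 0.57 in edgeR), and it was 0.20 without AFX6 and 0.85 without AF32.

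**Figure D3:**
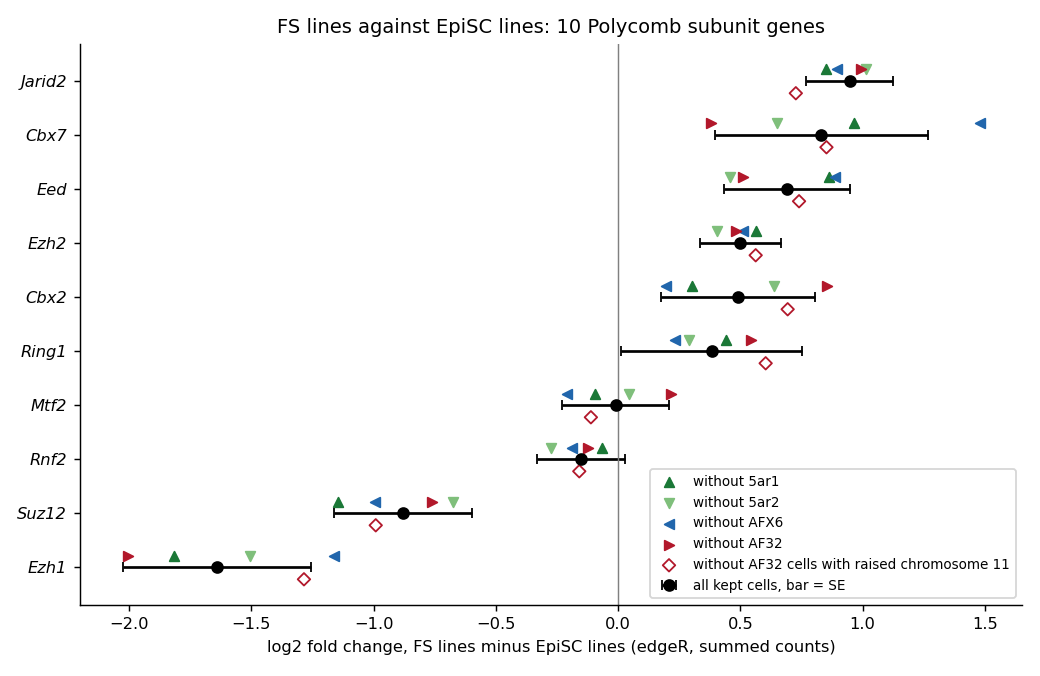
Log2 fold change of each gene between FS lines and EpiSC lines (horizontal axis; positive values are higher in FS cells) from edgeR on summed counts. Black points with bars are the estimate and its SE, triangles the estimate without 1 line, and open diamonds the estimate without the AF32 cells whose chromosome 11 ratio was over 1.2. Jarid2 (0.95) was the highest and Ezh1 (-1.64) the lowest, and Mtf2 changed sign when AF32 or 5ar2 was left out.

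Ratios of related subunits within a line do not depend on the scaling of the libraries. Per length, Ezh2 stood 14.8-fold and 20.6-fold above Ezh1 in 5ar1 and 5ar2, but 3.11-fold in AFX6 and 5.45-fold in AF32. Ezh1 thus made up 6.32% and 4.64% of both methyltransferases in the FS lines, 24.4% in AFX6 and 15.5% in AF32. The ratio was 4.24-fold higher in FS lines, and the lines did not overlap. With 2 lines against 2, the exact two-sided permutation test cannot go below p = 0.333, which was its value here. Without the AF32 cells over the chromosome 11 limit the ratio in AF32 was 12.8-fold, still under both FS lines. In single cells Ezh2 exceeded Ezh1 per length in 90 of 90 cells of each FS line, in 54 of 66 of AFX6 (81.8%; exact 95% interval 70.4% to 90.2%) and in 74 of 80 of AF32 (92.5%; 84.4% to 97.2%). The intervals cover counting error over cells only.

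The ratio of Mtf2 to Jarid2 was nearly the same in the FS lines, 2.16 in 5ar1 and 2.20 in 5ar2, and was higher in AFX6 (3.73) and AF32 (4.68). The ratio of Rnf2 to Ring1 was 8.48 and 8.83 in the FS lines and 13.7 and 11.6 in AFX6 and AF32. In both cases the lines did not overlap, and the exact permutation test gave the smallest p it allows, 0.333. The ratio of Cbx7 to Cbx2 was 0.706 and 1.11 in 5ar1 and 5ar2, and 1.23 and 0.364 in AFX6 and AF32, so the groups overlapped (exact permutation p = 1). AF32 had the lowest ratio, with Cbx7 above Cbx2 in 27 of its 80 cells (33.8%). In 5ar1 this share was the nearest, at 39 of 90 cells (43.3%). It was 53 of 90 cells in 5ar2 (58.9%) and 41 of 66 cells in AFX6 (62.1%).

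**Figure D4:**
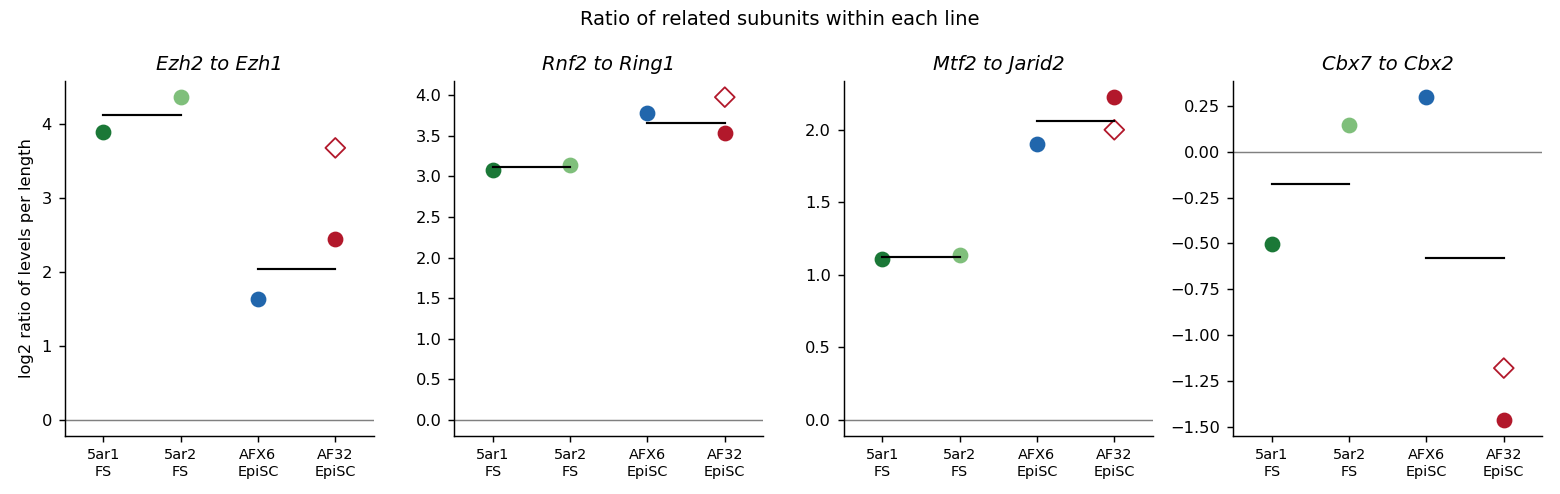
Ratio of related subunits per length in each line, on a log2 scale (vertical axis), with the mean of each group as a black bar. Open diamonds show AF32 without the cells whose chromosome 11 ratio was over 1.2. The lines of the 2 groups are apart for Ezh2 to Ezh1, Rnf2 to Ring1 and Mtf2 to Jarid2, and overlap for Cbx7 to Cbx2.

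The EpiSC lines were then set side by side, with no test since there is 1 line of each. AF32, grown without XAV939, had 3 members past 1.5-fold of AFX6, against 42% of all genes with at least 5 CPM in 1 line. Ezh1 was 1.73-fold and Cbx7 2.07-fold higher in AFX6, and Cbx2 was 1.63-fold higher in AF32. The values of Ezh1 and Cbx2 changed when cells with a raised chromosome 11 were left out, and for Cbx2 the change turned on the limit. Without cells whose ratio was over 1.2, Ezh1 was 4.30-fold higher in AFX6 (46.4 against 10.8 CPM) and the ratio of Cbx2 fell to 1.33. In the 13 AF32 cells at or under 1.1, Ezh1 stood at 15.3 CPM and Cbx2 at 37.4 CPM. Cbx2 stood at 40.9 CPM in the 61 AF32 cells over 1.2 and at 13.1 CPM in the 6 between 1.1 and 1.2. The remaining 7 genes had ratios of AF32 to AFX6 between 0.798 (Eed) and 1.39 (Mtf2). Restricted to cells with at least 10000 detected genes, 45 of AFX6 and 62 of AF32, Cbx7 alone stayed past the limit, at 2.21-fold. The FS lines, grown in the same medium, had 0 members past 1.5-fold, against 21.1% of the same genes, and their ratios of 5ar2 to 5ar1 lay between 0.727 (Suz12) and 1.34 (Eed).

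The spread from cell to cell was described within each line. The coefficient of variation of Ezh2 was 0.508 and 0.456 in 5ar1 and 5ar2, and 0.808 and 0.674 in AFX6 and AF32. For Ezh1 it was 1.99, 1.88, 1.37 and 1.78 in the same order, the highest of the 10 genes in both FS lines. Most of this follows the level of a gene, so the squared coefficient was also set against a trend over all genes of the line. Ezh1 lay above that trend in all 4 lines, by 0.46 to 0.95 on the log2 scale. Eed, Rnf2, Ring1 and Cbx7 lay under it in all 4 lines, by values between -0.76 and -0.08. The SD of all genes around the trend was 1.38 to 1.51, so no member was far from it. The cells held counts of 6 to 10 of the 10 members, with a median of 9 in 5ar1, 5ar2 and AF32 and 8 in AFX6. All 10 were found in 28.9% of cells of each FS line, 12.1% of AFX6 and 22.5% of AF32.

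Across cells of a line the members were close to unrelated. The median Spearman rho over their 45 pairs was 0.023 and 0.035 in 5ar1 and 5ar2 (90 cells each), 0.039 in AFX6 (66 cells) and 0.025 in AF32 (80 cells). Of the 45 pairs, 10 kept one sign in all 4 lines, 5 of them above 0. The largest mean over lines was 0.17, for Rnf2 and Cbx2. The core subunits Ezh2 and Eed had rho values of 0.22, 0.19, -0.10 and 0.09. Cells of a line share a culture, and their depth differs, so these values are descriptions only. Among 7036 genes whose mean reached 20 CPM, Gm9008 was the only one whose mean rho with a member was at least 0.3, with 0.32 for Ezh2.

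Ezh2 and Eed are known targets of the E2F factors, which drive entry into S phase, so the summed level of 14 S phase genes was set beside them. The promoter windows of both genes shown above held no match to the E2F words searched. That sum was 5343 and 5204 CPM in 5ar1 and 5ar2, and 3085 and 3860 CPM in AFX6 and AF32, and 12 of the 14 genes were higher in both FS lines, with a median log2 fold change of 0.60. Ccne2 (log2 fold change of 1.78), Ccne1 (1.53) and Tyms (1.02) had the largest differences among them, and none of the 14 passed the test in edgeR. The sum of 10 G2/M genes was 2874 and 3067 CPM in the FS lines and 4184 and 3553 CPM in AFX6 and AF32. Of these, 5 were higher in both EpiSC lines and none in both FS lines, with Top2a (-0.98), Mki67 (-0.71) and Ube2c (-0.66) the furthest. Beside both lists, 26.6% of all genes tested were higher in both FS lines and 21.7% in both EpiSC lines. Within lines, the rho of Ezh2 with the S phase sum was 0.30, 0.20, -0.03 and 0.24, and that of Eed was 0.29, 0.25, 0.02 and 0.33, in the order 5ar1, 5ar2, AFX6 and AF32. The S phase genes move with Ezh2 and Eed between the groups as well, and their part in the difference was not tested.

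Other Polycomb genes were counted in the same fit, and none was called. The shares over all genes tested were 26.6% higher in both FS lines and 21.7% higher in both EpiSC lines. Of 7 other PRC2 subunits tested, 3 were higher in both FS lines and 0 in both EpiSC lines, with a median log2 fold change of 0.01. They were Epop (32.7 and 27.3 CPM in 5ar1 and 5ar2, 20.4 and 16.2 CPM in AFX6 and AF32), an accessory subunit found with Mtf2, Aebp2 (13.8, 14.9, 10.4 and 9.53 CPM), which belongs to the Jarid2 form, and the histone chaperone Rbbp4 (699.8, 697.4, 507.9 and 494.3 CPM). Of 10 other subunits of canonical PRC1, 1 was higher in the FS lines and 3 in the EpiSC lines, and the median was -0.34. Scmh1 was measured at 11.6 and 8.83 CPM in the FS lines and 21.7 and 32.3 CPM in AFX6 and AF32, a log2 fold change of -1.40. Pcgf2, which pairs with the ligases in canonical PRC1, had a log2 fold change of -0.92, and the chromodomain gene Cbx6 of 0.69.

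Variant PRC1, which lacks the Cbx proteins of canonical PRC1, split both ways. Of 14 subunits, 5 were higher in both FS lines and 7 in both EpiSC lines, with a median of -0.17. The shares over all genes tested were 26.6% and 21.7%. The largest differences were those of the DNA-binding repressor E2f6 (88.2 and 54.5 CPM in 5ar1 and 5ar2, 25.7 and 33.7 CPM in AFX6 and AF32), of L3mbtl2 (152.5, 180.1, 88.5 and 59.0 CPM) and of Bcorl1 (10.5, 12.4, 25.2 and 24.1 CPM). Their log2 fold changes were 1.26, 1.16 and -1.12. E2f6 and L3mbtl2 belong to the same variant complex, with Pcgf6, which was also higher in both FS lines (74.0 and 109.9 CPM against 62.4 and 66.5 CPM) and was named after its values were seen. Mga, the DNA-binding partner of that complex, had a log2 fold change of -0.23. Of 8 genes for enzymes and cofactors that remove Polycomb marks, 1 was higher in the FS lines and 0 in the EpiSC lines. It was Usp16, an H2A deubiquitinase, at 60.9 and 74.4 CPM in the FS lines and 38.4 and 38.6 CPM in AFX6 and AF32. The H3K27 demethylases Kdm6a and Kdm6b had log2 fold changes of -0.03 and 0.06.

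**Figure D5:**
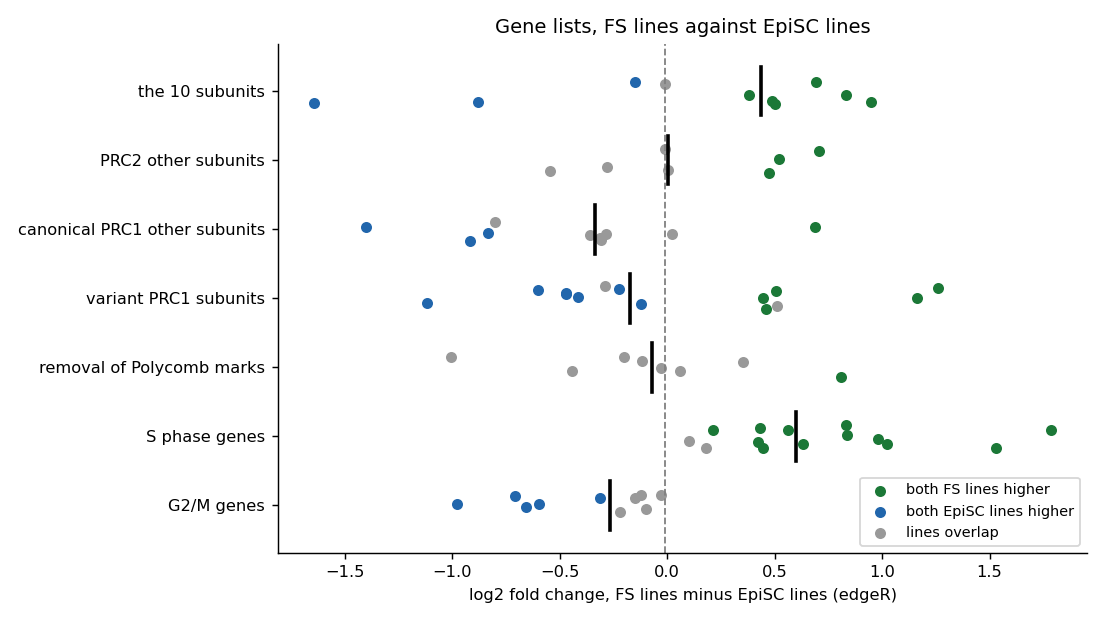
Log2 fold change of each gene of the Polycomb and cell cycle lists between FS lines and EpiSC lines (horizontal axis; edgeR on summed counts). Points are genes, coloured by whether both lines of one group were higher, black bars are list medians, and the dashed line is the median of all genes tested (-0.01). The list medians run from -0.34 for canonical PRC1 to 0.60 for the S phase genes, and the 10 subunits have a median of 0.44.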

How the data were processed

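Single cells were sorted into 96-well plates and libraries made by Smart-seq2, which carries no molecular identifiers. The authors deposited raw counts of reads per gene and cell, made, per the submitters' processing notes, with STAR 2.7.3a and featureCounts 2.0.0 on GRCm38.p6. The deposited table of depth-normalised values was not used. The filters on reads and the counting options were not repeated.

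Cells with at least 3000000 counts were kept. Counts were summed per line and divided by the line's total, to CPM. The 4 sums were compared over 22606 genes by the quasi-likelihood test of edgeR 4.0.16 in R 4.3.3, after filterByExpr and TMM scaling. Calls needed a Benjamini-Hochberg adjusted p below 0.05 and a log2 fold change past 1.4 in either direction, and a p measures only the spread between lines. Gene lengths are unions of exons in GENCODE M21. The chromosome ratio used genes with at least 20 mean CPM, each divided by its mean over cells and limited to 5. Shares of cells have exact Clopper-Pearson 95% intervals (scipy 1.17.1). A count of 0 allows 3 counts of a cell's total, and both cover counting error only.

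Alternatives were DESeq2 1.42.0, limma 3.58.1, DESeq2 size factors, no filter, other limits on cells, thinning, each line left out, cells with a chromosome ratio over 1.2 left out, and, chosen after seeing the data, cells with at least 10000 detected genes, totals without TMM, the chromosome 11 limit of 1.1 and, for paralogue ratios, that of 1.2. The 10 members are given in full, and of each other list up to 3 genes with the largest change among those with at least 5 CPM in 1 line and lines that do not overlap. The members and the 12 other lists (subunits, removal of marks, developmental targets, cell cycle, cell type markers) were chosen with earlier results of these data known. Promoters came from RefSeq.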

Additional observations from a re-analysis of the deposited data

How the results depend on the processing

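The number of genes called between FS cells and EpiSCs was 0 under edgeR with every alternative and under limma, and 1454 with DESeq2; it was 0 to 0 when each line was left out. On summed counts, the members with lines that do not overlap numbered 5 to 7 on the FS side and 2 to 4 on the EpiSC side. The 7 came from the fit without AF32 and the 4 from that without AFX6, where 1 EpiSC line stands alone. Over all genes tested in the main fit, the shares were 26.6% and 21.7%. Means of log2(CPM + 1) over cells fell outside these ranges. There Suz12 overlapped (3.52 in 5ar1, 3.26 in AFX6). Rnf2 was higher in both FS lines (6.05 and 6.48) than in AFX6 (5.52) and AF32 (6.00). Of the 10 members, 8 kept the sign of their log2 fold change in all 15 alternatives. The log2 fold change of Mtf2 turned to 0.055 with at least 4000000 counts per cell and to 0.46 with limma, and lay between -0.21 and 0.22 when each line was left out, and that of Rnf2 turned to 0.50 with limma; the cause was not tested. Without AFX6 or AF32 the median log2 fold change of all genes was 0.17 and 0.21, so values without these lines stand on a shifted base. Between AF32 and AFX6, 1 member was past 1.5-fold in cells with at least 10000 detected genes, against 3 in all kept cells. Between 5ar2 and 5ar1, 3 members were past 1.5-fold by the median over cells (Ezh1, Suz12 and Ring1), against 0 by summed counts; these medians lie at or under 14.3 CPM. The paralogue ratios kept their direction in each alternative run for them, and thinning moved the spread and the relations across cells by less than 1 SD over lines. No paired analysis was possible because the tested units are lines, and the shared numbers of the labels only name cells within a line. With 2 lines a group, the precision is limited by the number of lines rather than by depth.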

Other observations

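Of 25 developmental genes known as Polycomb targets, 21 were in the table used here and 13 had enough counts to be tested. Of these, 5 were higher in both FS lines and 1, the mesoderm gene T, in both EpiSC lines, with a median log2 fold change of 0.04 and none called in edgeR. The shares over all genes tested were 26.6% for both FS lines and 21.7% for both EpiSC lines. T was measured at 0.144 and 0.179 CPM in 5ar1 and 5ar2, and at 0.382 and 39.1 CPM in AFX6 and AF32, so AF32 alone stood apart. The sum over the 21 genes was 32.8 and 15.3 CPM in the FS lines, 6.82 in AFX6 and 68.8 in AF32. In 5ar1, Hand1 made up most of it, at 23.5 CPM, and it was chosen after its values were seen.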
